A study of Mus musculus with 4 samples.

Results

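The 10 genes described here encode the epidermal growth factor (EGF) receptor family of mouse skin, 6 of its ligands and its feedback inhibitor. Their transcripts were measured by RNA sequencing in sorted hair follicle stem cells. The genes were chosen by name: the 3 receptors Egfr, Erbb2 and Erbb3, the 6 ligands Areg, Ereg, Epgn, Hbegf, Tgfa and Btc, and the inhibitor Errfi1. All 10 were found by symbol among the 24084 gene rows of the count table. The study has 4 libraries of such cells from dorsal skin of C57BL/6 mice aged 7 to 10 weeks, taken 4 days after hair was removed to start new follicle growth. The 2 libraries labelled Foxp3-DTR (replicates C and D) come from mice whose Foxp3-expressing regulatory T cells carry a receptor for diphtheria toxin and are labelled as depleted. The 2 libraries labelled WT (replicates A and C) come from wild-type mice in which these cells are labelled as present. Both groups received the toxin, at 15 ng/g into the abdominal cavity. Whether a library came from 1 animal or several is not given in the sources used here.

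ErbB receptors are tyrosine kinases that pair on the cell surface when a ligand binds. Egfr binds all 6 ligands listed here, Erbb2 binds no known ligand and serves as a partner, and Erbb3 binds neuregulins and has little kinase activity of its own. The ligands are made as membrane-anchored precursors that proteases cut free, and in skin they are known to drive growth, migration and repair of keratinocytes.

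Transcripts of Tgfa and Errfi1 stood at 2.55 and 2.24 times the WT level in Foxp3-DTR cells, and those of Erbb2 and Erbb3 at 1.62 and 1.72 times it. In all 4 genes both Foxp3-DTR libraries were above both WT libraries, an order that 22.0% of all genes tested also had. None of the differences passed edgeR's quasi-likelihood test after Benjamini-Hochberg adjustment over all 12920 genes tested. Egfr, the most abundant of these transcripts in WT cells, had overlapping groups. The other ligands were scarce, and Areg was close to absent.

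Gene counts per library were 13911765 to 15923154, and levels are given in CPM, a gene's reads relative to the TMM-scaled total of its library. Of the 8 markers of follicle stem cells examined, all were detected in every library, with summed levels of 11800 and 14800 CPM in Foxp3-DTR and 13600 and 16100 CPM in WT libraries. Krt15 made up most of that sum, and single markers differed in both directions. Cd34 and Itga6 had log2 fold changes of 0.63 and 0.70 and Lhx2 one of -0.88, close in size to the 0.69 of Erbb2 and the 0.78 of Erbb3. Of the 8, edgeR called 0 and limma-voom called 0. Before adjustment, edgeR's p was below 0.05 for 2 higher and 1 lower, against 6.76% and 7.89% of all genes tested. DESeq2 called these 3 (adjusted p = 0.0284, 0.00934 and 3.03e-05). Its shares among all genes with an adjusted p were 3.61% higher and 3.79% lower. Genes of suprabasal epidermis divided the libraries of each group, at a summed 1220 CPM in Foxp3-DTR C, 7110 CPM in Foxp3-DTR D, 8400 CPM in WT A and, for WT C, 997 CPM. Xist, the X-inactivation RNA of female cells, stood at 1.86 and 0 CPM in Foxp3-DTR libraries and at 861 and 2480 CPM in WT libraries, and 4 Y-linked genes had counts in both Foxp3-DTR libraries and in neither WT library. Genotype therefore cannot be told apart from sex in any difference given here, nor from the number 3 or 2 that follows DEP in the sample titles of the groups.

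The receptors were compared first. Erbb2 (mm10 chr11:98412470-98437716) stood at 183 and 144 CPM in Foxp3-DTR libraries, against 110 and 92.5 CPM in WT libraries. Its groups did not overlap, and the log2 fold change of 0.69 ± 0.21 (SE) did not pass edgeR's test (adjusted p = 0.170). Erbb3 (chr10:128567523-128589652) stood at 112 and 80.4 CPM in Foxp3-DTR, against 49.4 and 62.9 CPM in WT. Again every Foxp3-DTR value exceeded every WT value. This log2 fold change was 0.78 ± 0.24 and did not pass either (edgeR, adjusted p = 0.182). Melanocytes also use this receptor, and 6 of 7 tested melanocyte markers had positive fold changes (median 1.29 on the log2 scale), and 0 passed edgeR's adjusted threshold, with 1 higher at an unadjusted p under 0.05 and 0 called by DESeq2 or limma-voom. The summed level of the 8 markers was 121 and 144 CPM in Foxp3-DTR and 98.3 and 142 CPM in WT libraries, with none at 0 in all libraries. Mitf made up most of that sum, at 85.8 and 95.4 CPM in Foxp3-DTR and 63.9 and 122 CPM in WT. Its groups overlapped, as did those of Dct. Pmel, Mlana, Tyr, Tyrp1, Kit and Sox10 had both Foxp3-DTR libraries above both WT libraries, as 22.0% of all genes tested did. The part of melanocytes in the Erbb3 difference was not tested. Here as elsewhere in sorted bulk RNA, fewer cells of a type and less RNA per cell cannot be told apart.

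Egfr (chr11:16752203-16918158) behaved otherwise, with 386 and 323 CPM in Foxp3-DTR and 299 and 473 CPM in WT libraries. The WT values lie on both sides of the Foxp3-DTR values. Its log2 fold change was -0.12 ± 0.26, with an unadjusted 95% interval of -0.75 to 0.50 and an edgeR adjusted p of 0.895. Within each group the library with the lower suprabasal sum had the higher Egfr level, and the part of differentiated cells in this spread was not tested. As a ratio of levels per kilobase of exon, Egfr stood to Erbb2 at 0.968 and 1.03 in Foxp3-DTR libraries and at 1.25 and 2.35 in WT libraries. The remaining receptor of the family, Erbb4, had 0 counts throughout, and a floor of 3 counts puts its level at no more than 0.213 CPM in any library, for counting error alone.

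**Figure D1:**
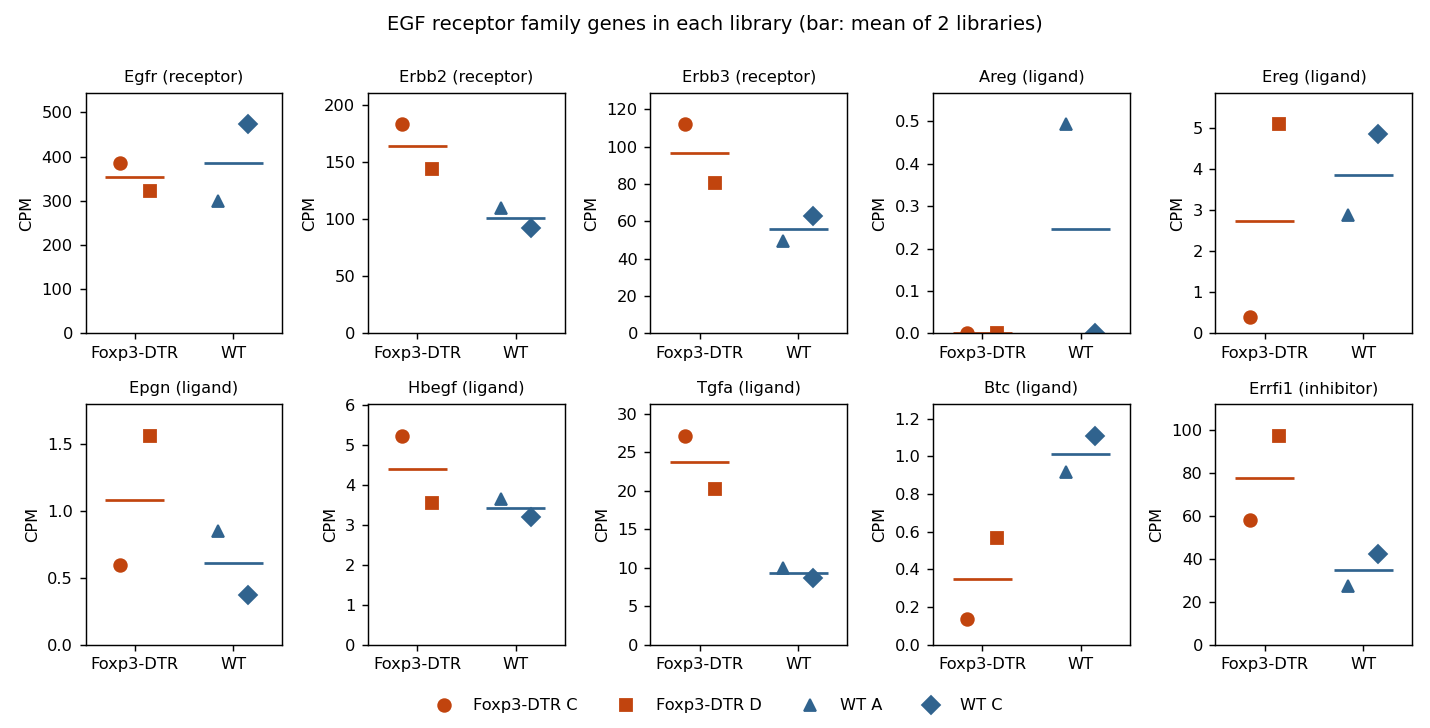
CPM of each of the 10 genes in 4 libraries, with Foxp3-DTR on the left and WT on the right of each panel. Points are libraries and horizontal bars are means of 2 libraries. Tgfa, Erbb2, Erbb3 and Errfi1 have both Foxp3-DTR points above both WT points, and Btc has both below.

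Among the ligands, Tgfa (transforming growth factor alpha, chr6:86195223-86275719) was the most abundant. It stood at 27.2 and 20.3 CPM in Foxp3-DTR libraries, against 10.0 and 8.67 CPM in WT libraries. The lowest Foxp3-DTR value was above the highest WT value. Its mean was 23.8 ± 4.85 CPM in Foxp3-DTR and 9.33 ± 0.937 CPM in WT (SD, n = 2 each). The log2 fold change of 1.35 ± 0.30 had an unadjusted p of 0.00333 and an adjusted p of 0.088 in edgeR's test, the smallest of the 9 genes tested. DESeq2 gave an adjusted p of 0.00774 and edgeR without a filter on low counts 0.046, so that the call depended on the method; over all alternatives the adjusted p ran from 0.00774 to 0.602. The largest of these values came without Foxp3-DTR C. A stretch of 118 exon bases of Tgfa overlaps an annotated gene on the opposite strand, and the strand setting of the counter is not given in the sources used here. The 8 genes of inner root sheath and hair shaft summed to 246 and 264 CPM in Foxp3-DTR and 192 and 194 CPM in WT libraries. Of the 7 tested, edgeR called 0, with 3 higher and 1 lower at an unadjusted p under 0.05. DESeq2 called 2 higher, Krt27 and Krt71, and 1 lower, Krt28. The part of such cells in the Tgfa difference was not tested.

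Hbegf (heparin-binding EGF-like growth factor) had 79 and 50 counts in Foxp3-DTR and 52 and 52 counts in WT libraries. These are 5.24 and 3.54 CPM in Foxp3-DTR, against 3.66 and 3.20 CPM in WT. One Foxp3-DTR library fell between the WT libraries, and the 95% interval of the log2 fold change, -0.97 to 1.68, spans 0. The toxin receptor that gives Foxp3-DTR mice their name is itself a primate form of this growth factor precursor. Foxp3, whose locus directs its expression, had 0 counts in all 4 libraries, and whether reads of the transgene could be counted as Hbegf was not tested.

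Epgn, Ereg, Areg and Btc lie in a row on chromosome 5 within 375.5 kb, in that order, with gaps of 39.4, 46.0 and 208.8 kb between them. The log2 fold changes of Ereg, Epgn and Btc were -0.50, 0.82 and -1.52. Their 95% intervals, -3.13 to 2.13, -1.66 to 3.31 and -4.20 to 1.16, overlapped, and Areg did not pass the filter on low counts. Whether the 4 genes share a pattern is therefore not resolved. Ereg (epiregulin) had 6 and 72 counts in Foxp3-DTR and 41 and 79 counts in WT libraries, or 0.398 and 5.10 CPM in Foxp3-DTR and 2.89 and 4.86 CPM in WT. The low value of Foxp3-DTR C stands alone, and without that library the log2 fold change was 0.40, against -0.50 ± 1.08 with it. Ereg shares 141 exon bases with an antisense gene.

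Epgn (epigen) had 9 and 22 counts in Foxp3-DTR and 12 and 6 counts in WT libraries. These are 0.597 and 1.56 CPM in Foxp3-DTR and 0.845 and 0.369 CPM in WT, and the groups overlapped. In each group Epgn was higher in the library with the larger suprabasal sum, the reverse of Egfr, but this order rests on few counts. Btc (betacellulin) had 2 and 8 counts in Foxp3-DTR and 13 and 18 counts in WT libraries. It was the 1 tested gene of the family with both Foxp3-DTR libraries below both WT libraries, at 0.133 and 0.567 CPM against 0.915 and 1.11 CPM. At this depth its log2 fold change of -1.52 ± 1.12 had a 95% interval of -4.20 to 1.16 (edgeR, adjusted p = 0.629).

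Areg (amphiregulin), a ligand that regulatory T cells themselves are known to make in injured tissue, had no counts in either Foxp3-DTR library (0 and 0), against 7 counts in WT A and 0 in WT C. It did not pass the filter on low counts and was not tested in the edgeR fit that used it. Set against a floor of 3 counts over the Foxp3-DTR group, the WT level was 2.24-fold higher. That ratio takes the 7 counts as exact and rests on WT A alone, since WT C had 0 counts like both Foxp3-DTR libraries. DESeq2 gave a log2 fold change of -4.29 ± 4.81 (unadjusted p = 0.373), so no difference was resolved. WT A was also the library with the highest summed levels of T cell, myeloid, sebaceous gland and suprabasal markers. The 7 T cell genes found summed to 0.928 and 0.354 CPM in Foxp3-DTR libraries, 5.56 CPM in WT A and, for WT C, 0.0615 CPM, with Cd4 and Cd2 at 0 counts throughout. The 7 genes found of macrophages, Langerhans cells, granulocytes and mast cells summed to 1.99 and 0.354 CPM in Foxp3-DTR, 5.35 CPM in WT A and, for WT C, 0.677 CPM. The 8 sebaceous gland genes, with Plin5 at 0 counts throughout, summed to 389 and 558 CPM in Foxp3-DTR, 2160 CPM in WT A and, for WT C, 348 CPM. The part of any of these cells in the 7 Areg counts was not tested.

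Errfi1 (chr4:150853919-150868892) encodes the ERBB receptor feedback inhibitor, also known as Mig6, which is switched on by EGF receptor signalling and then blocks the receptor kinases. It stood at 57.8 and 97.3 CPM in Foxp3-DTR libraries, against 27.2 and 42.1 CPM in WT libraries. Although the groups did not overlap, the spread within each was wide. The means were 77.6 ± 27.9 CPM in Foxp3-DTR and 34.7 ± 10.6 CPM in WT (SD, n = 2 each). Its log2 fold change of 1.16 ± 0.33 had an adjusted p of 0.163 in edgeR's test and 0.019 in DESeq2, with a range of 0.019 to 0.503 over all alternatives; the largest of these came without Foxp3-DTR D, where the log2 fold change was 0.75. Errfi1 also responds to cell stress, and a list of 12 genes that respond early to tissue dissociation summed to 1330 and 1070 CPM in Foxp3-DTR and 699 and 624 CPM in WT libraries. Of these 12, 11 had positive fold changes, against 48.6% of all genes tested. In edgeR's test over all genes 3 rose and 0 fell, where 0.820% of all genes rose and 0.426% fell (1 was lower at an unadjusted p under 0.05, and DESeq2 called 0 lower). The 3 were Junb, Zfp36 and Socs3. Atf3, Hspa1a and Hspa1b also had both Foxp3-DTR libraries above both WT libraries, as 22.0% of all genes tested did. None of them passed edgeR's test. Atf3 was called higher by DESeq2 (adjusted p = 0.000399) and by edgeR without a filter (0.0266). DESeq2 thus called 4 of the 12 higher, where its share among all genes was 3.61%. Before adjustment, edgeR's p was below 0.05 for 4 higher genes of the list, against 6.76% of all genes. In Fos, Fosb, Egr1, Ier2 and Dusp1 the groups overlapped. Jun was the lower gene, at 71.8 and 46.8 CPM in Foxp3-DTR, against 97.4 and 85.0 CPM in WT. The median log2 fold change of the list was 0.56, where that of all tested genes was -0.01. The part of dissociation in the Errfi1 difference was not tested.

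The DNA upstream of Errfi1, Tgfa and Areg is shown because the first 2 had the smallest p-values of the family and the third was the ligand near 0. Each line gives 250 bases before a RefSeq start (GRCm38.p6, plus strand), at chr4:150854820-150855069, chr6:86194972-86195221 and chr5:91139349-91139598. The Errfi1 window lies before the second of its 2 RefSeq starts and after the first. It is shown for its matches, since the window before the first start holds 0 matches to the 4 motifs below. Capitals mark matches, on either strand, to the cyclic AMP response element TGACGTCA, the AP-1 site TGANTCA, the GC box GGGCGG and TATAAA.
Errfi1: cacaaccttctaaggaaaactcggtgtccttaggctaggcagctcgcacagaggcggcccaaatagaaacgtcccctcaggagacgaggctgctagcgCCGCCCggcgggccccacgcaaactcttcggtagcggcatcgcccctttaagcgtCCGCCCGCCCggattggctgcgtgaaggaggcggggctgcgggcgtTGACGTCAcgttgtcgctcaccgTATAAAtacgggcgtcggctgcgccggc
Tgfa: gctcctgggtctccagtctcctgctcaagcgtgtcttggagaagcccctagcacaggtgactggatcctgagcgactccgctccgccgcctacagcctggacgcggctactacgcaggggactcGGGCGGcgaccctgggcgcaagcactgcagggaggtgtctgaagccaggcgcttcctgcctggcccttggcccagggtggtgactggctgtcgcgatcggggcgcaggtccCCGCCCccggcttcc
Areg: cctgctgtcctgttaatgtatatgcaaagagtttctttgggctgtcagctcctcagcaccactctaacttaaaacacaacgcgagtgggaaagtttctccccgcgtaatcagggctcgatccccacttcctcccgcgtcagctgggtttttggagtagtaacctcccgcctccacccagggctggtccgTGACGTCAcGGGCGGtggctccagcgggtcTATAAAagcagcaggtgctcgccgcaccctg

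The Errfi1 window shown and that of Areg hold the same pair of matches in the same order. A response element begins 51 and 61 bases before the start and a TATAAA begins 28 and 31 bases before it. Because the Errfi1 window was picked for its matches, this likeness is a description only, and the share of windows with both was not counted. Of the windows not shown, that of Epgn holds a TATAAA 86 bases before its start and that of Egfr 1 GGGCGG. Those of Erbb2 and Btc hold 0 matches. Errfi1 had 872 and 1373 counts in Foxp3-DTR and 386 and 685 counts in WT libraries, where Areg had counts in WT A alone. In 32851 windows of this kind, TGACGTCA occurs in 1.55%, TATAAA in 12.4%, GGGCGG in 32.7% and TGANTCA in 6.75%. The Tgfa window holds 2 matches to GGGCGG and none to the other 3 motifs. Promoter windows were found for 7 of the 10 genes, and a match is a string of letters and not a measured site.

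Levels per kilobase of exon allow the genes to be set in order. Egfr had 31.3 ± 3.95 CPM per kilobase in Foxp3-DTR and 34.1 ± 10.8 in WT libraries, and Erbb2 had 31.4 ± 5.40 in Foxp3-DTR and 19.4 ± 2.33 in WT (SD, n = 2 each). In WT the Egfr libraries lay above those of Erbb2, and in Foxp3-DTR the libraries of both genes overlapped. Errfi1 at 21.7 ± 7.79 in Foxp3-DTR and 9.67 ± 2.95 in WT, and Erbb3 at 16.0 ± 3.75 in Foxp3-DTR and 9.33 ± 1.59 in WT, came next and overlapped in both groups. Tgfa followed with 3.66 ± 0.747 CPM per kilobase in Foxp3-DTR and 1.44 ± 0.144 in WT, apart from both its neighbours in the order. All other ligands averaged under 1 CPM per kilobase of exon in both groups. With the longest annotated transcript as length, Hbegf averaged 1.52 in Foxp3-DTR and 1.19 in WT. Among 12362 tested genes with a known length, Tgfa was at percentile 31.7 in Foxp3-DTR and 16.1 in WT, and Errfi1 at percentile 79.7 in Foxp3-DTR and 57.5 in WT. The order of Hbegf and Ereg is not resolved, since their libraries overlapped in both groups.

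**Figure D2:**
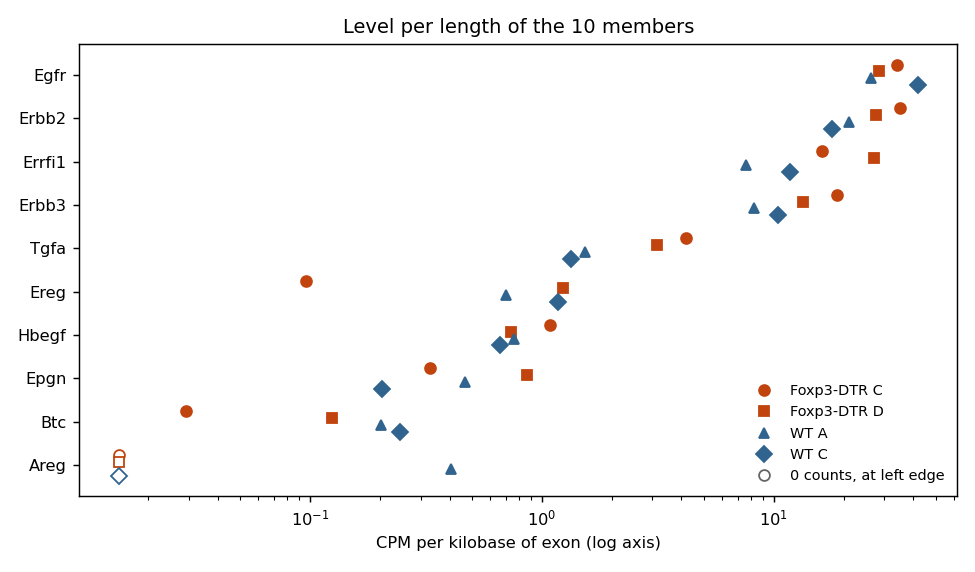
CPM per kilobase of exon, on a log axis, for the 10 genes in each of 4 libraries, in the order of their WT means. Open symbols at the left edge stand for 0 counts. The receptors and Errfi1 lie above 7 in every library, and all ligands lie below 4.2.

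Summed over the 6 ligands, the level was 5.73 and 6.09 CPM per kilobase in Foxp3-DTR and 4.07 and 3.62 in WT libraries. Egf, also a ligand of this receptor, is not among the 6 and was left out of the sum and shares. It stood at 3.51 and 0.425 CPM in Foxp3-DTR and 1.13 and 1.60 CPM in WT libraries. Tgfa made up 73.1% and 51.4% of this sum in Foxp3-DTR, against 37.8% and 36.9% in WT. The Tgfa share was higher in both Foxp3-DTR libraries than in either WT library. Ereg had no such order, at 1.68% and 20.3% in Foxp3-DTR and 17.2% and 32.5% in WT. Areg reached 9.96% in WT A, where its short transcript raises the weight of 7 counts, and 0% elsewhere.

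**Figure D3:**
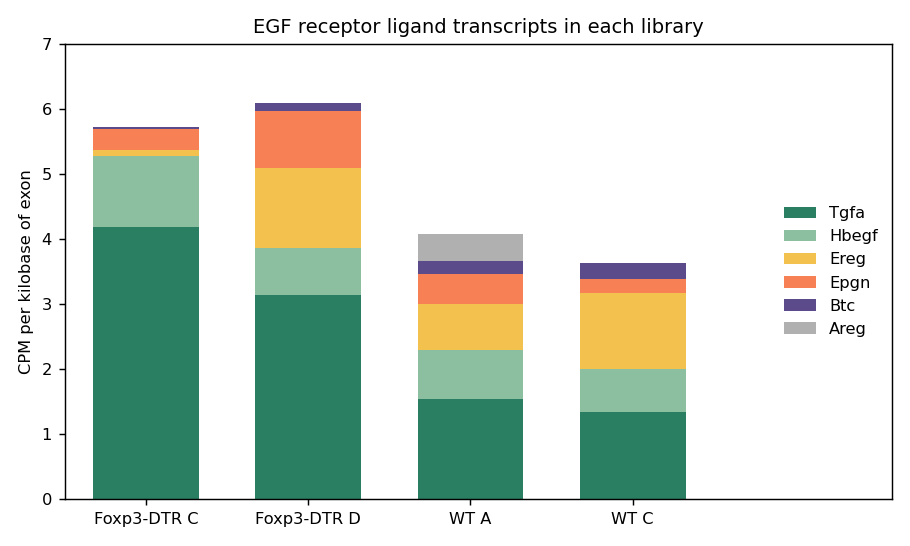
Stacked bars of CPM per kilobase of exon for the 6 ligands, 1 bar per library, with Foxp3-DTR on the left. The Tgfa segment is the tallest in every bar and is taller in both Foxp3-DTR bars than in either WT bar.

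Counted together, 9 of the 10 genes passed the filter on low counts, and 0 passed edgeR's adjusted threshold of 0.05, against 1.25% of all genes tested. Limma-voom also called 0. At an unadjusted p under 0.05 there were 4 higher, namely Tgfa, Errfi1, Erbb2 and Erbb3, and 0 lower, against 6.76% and 7.89% of all genes. DESeq2 called 3 higher, which were Tgfa, Errfi1 and Erbb2 (adjusted p = 0.0487), where it called 3.61% of all genes with an adjusted p higher. Without a filter, edgeR called 1 higher, Tgfa, against 1.77% of all genes. Groups did not overlap in 5 of the 9, with Foxp3-DTR higher in 4 and lower in 1, against 22.0% and 23.7% of all genes tested. Fold changes were positive for 6 and negative for 3, with a median log2 fold change of 0.69, where the median over all tested genes was -0.01. These counts describe the genes chosen and test nothing about the family.

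**Figure D4:**
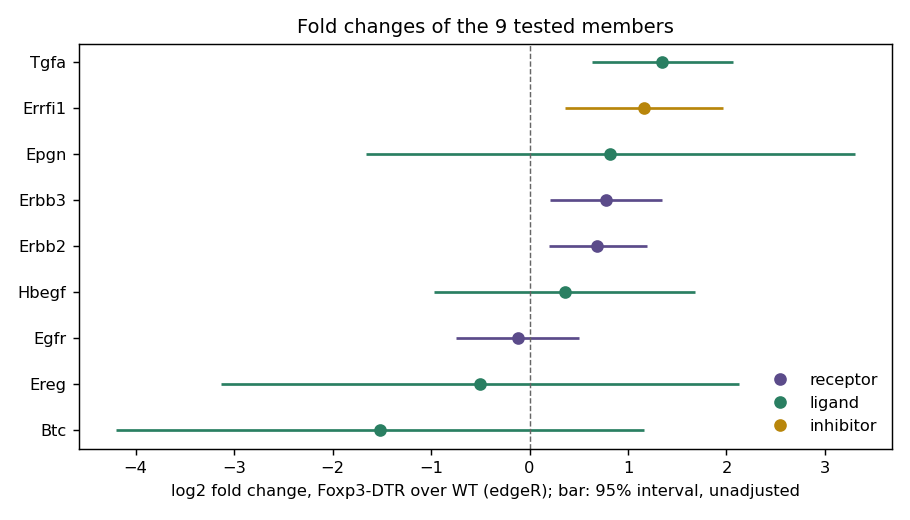
Log2 fold change of Foxp3-DTR over WT for the 9 tested genes, with unadjusted 95% intervals from edgeR's test, coloured by role. The intervals of Tgfa, Errfi1, Erbb3 and Erbb2 lie above 0, and those of the other 5 genes span it.

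The rest of the pathway was read from 6 lists of 72 genes, of which 67 were tested. In edgeR's test over all genes 2 of the 67 rose and 1 fell, against the 0.820% and 0.426% of all genes. At an unadjusted p under 0.05 there were 9 higher and 3 lower, where 6.76% and 7.89% of all genes were. DESeq2 called 6 higher and 3 lower, where it called 3.61% and 3.79% of all genes with an adjusted p. The other ErbB ligands gave 0 of 3 tested past the threshold, 0 at an unadjusted p under 0.05 and 0 by limma-voom or DESeq2. Nrg1, a neuregulin that binds Erbb3, stood at 1.33 and 1.28 CPM in Foxp3-DTR and at 0 and 0.492 CPM in WT libraries, and its log2 fold change was 2.33 ± 1.39 (edgeR, adjusted p = 0.537). Erbb4 and Nrg3 had 0 counts in all libraries.

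Of 8 tested genes of ligand shedding 0 passed, 1 was higher and 1 lower at an unadjusted p under 0.05, and DESeq2 called 1 higher and 1 lower. Timp3, an inhibitor of the shedding protease Adam17, stood at 41.5 and 63.4 CPM in Foxp3-DTR, against 155 and 131 CPM in WT libraries. The groups were well apart, and edgeR gave a log2 fold change of -1.45 ± 0.25 that narrowly missed the threshold (adjusted p = 0.0543). This p ran from 2.99e-05 to 0.211 over the alternatives. Adam17 itself, which cuts most of these ligands free, had 80.6 and 73.2 CPM in Foxp3-DTR and 77.2 and 79.3 CPM in WT, and was chosen for mention after its values were seen. The gene DESeq2 called higher was Rhbdf1, at 204 and 145 CPM in Foxp3-DTR against 84.6 and 97.4 CPM in WT. Its adjusted p was 0.00437 in DESeq2 and 0.0999 in edgeR. Of 12 genes that attenuate the receptor 1 fell and 0 rose (2 higher and 1 lower at an unadjusted p under 0.05, and DESeq2 called 1 higher and 1 lower). The 1 higher was Socs5, at 118 and 94.2 CPM in Foxp3-DTR against 49.8 and 60.1 CPM in WT. Its adjusted p was 0.00363 in DESeq2 and 0.0841 in edgeR. The gene that fell was Sh3kbp1, an adaptor that works with Cbl in taking the receptor into the cell, at 13.0 and 14.9 CPM in Foxp3-DTR against 43.0 and 38.7 CPM in WT. The log2 fold change of -1.55 ± 0.24 passed edgeR's test at an adjusted p of 0.0444, and no longer passed with a non-robust fit, without Foxp3-DTR C (0.194), without Foxp3-DTR D (0.056) or without WT A (0.0723).

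None of the 18 adaptor and Ras-MAPK genes passed, 0 had an unadjusted p under 0.05, and limma-voom and DESeq2 called 0. The smallest p was that of Shc1, a receptor adaptor, with 84.2 and 80.5 CPM in Foxp3-DTR and 63.9 and 64.0 CPM in WT (edgeR adjusted p = 0.413). Of 9 genes of the PI3K-Akt branch 0 passed in edgeR's test, with 1 higher at an unadjusted p under 0.05 and 1 called higher by DESeq2. This was Pik3r1, a regulatory subunit of the kinase, at 723 and 807 CPM in Foxp3-DTR and 342 and 490 CPM in WT libraries. The log2 fold change was 0.88 ± 0.24 (edgeR, adjusted p = 0.138).

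Of 17 tested genes that respond to ERK, the kinase at the end of the Ras-MAPK chain, 2 rose and 0 fell in edgeR's test. Among all genes these shares were 0.820% and 0.426%. Before adjustment, edgeR's p was below 0.05 for 5 higher and 1 lower, against 6.76% and 7.89% of all genes. DESeq2 called 3 higher and 1 lower, where its shares were 3.61% and 3.79%. The list's median log2 fold change was 0.44, where that of all tested genes was -0.01. The median is the value of Fos, which like Egr1 is also in the list of genes that respond early to dissociation. Ier3, an early response gene that also answers to NF-kappaB, stood at 230 and 174 CPM in Foxp3-DTR, against 43.2 and 45.0 CPM in WT (log2 fold change 2.20 ± 0.21, edgeR adjusted p = 0.0108). Myc, a growth-promoting transcription factor, stood at 251 and 173 CPM in Foxp3-DTR, against 52.5 and 64.7 CPM in WT (log2 fold change 1.86 ± 0.24, edgeR adjusted p = 0.0323, and 0.0512 without Foxp3-DTR C). Dusp6, a phosphatase that shuts ERK off, and Ccnd1, a cyclin of the G1 phase, are named after their values were seen. Dusp6 had 142 and 116 CPM in Foxp3-DTR and 45.5 and 64.9 CPM in WT, and Ccnd1 had 82.4 and 192 CPM in Foxp3-DTR and 487 and 357 CPM in WT. Neither passed edgeR's test (adjusted p = 0.0678 for Dusp6 and 0.157 for Ccnd1), and their differences ran in opposite directions. DESeq2 called both, Dusp6 higher (adjusted p = 0.000251) and Ccnd1 lower (0.000634), and edgeR without a filter called Dusp6 (0.0164) and not Ccnd1 (0.237). Over the 6 lists, leaving out Foxp3-DTR C gave 1 higher and 0 lower, leaving out WT C gave 4 higher and 2 lower, leaving out WT A gave 0 lower and leaving out Foxp3-DTR D gave 2 lower.

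**Figure D5:**
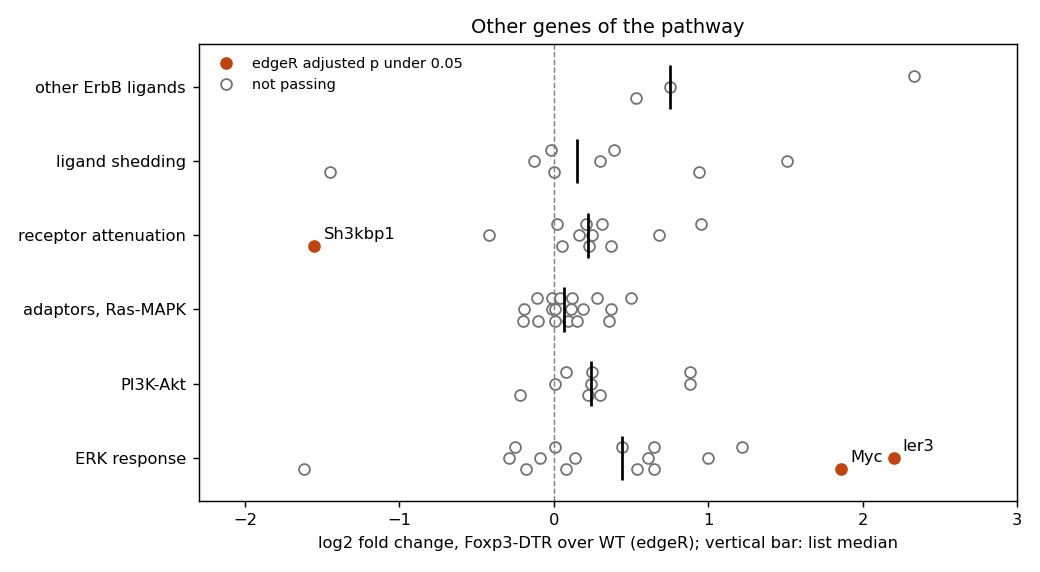
Log2 fold change of Foxp3-DTR over WT for the tested genes of 6 pathway lists, with the list median as a vertical bar. Filled points passed edgeR's adjusted threshold, and these are Ier3, Myc and Sh3kbp1. The adaptors and Ras-MAPK genes lie closest to 0.

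The genes with the nearest pattern over the 4 libraries were sought for the 2 members with the smallest p, among 10784 genes. Likeness was the largest difference in any library between log2 CPM values centred on their mean. For Tgfa they were Smoc2, Sh2d4a and Ttc7, with largest differences of 0.097, 0.111 and 0.125. Smoc2, a secreted matrix protein, stood at 507 and 427 CPM in Foxp3-DTR and 199 and 166 CPM in WT. It had nearly the fold change of Tgfa, 1.36 on the log2 scale, but at a higher level and a smaller SE (0.20), and it passed with an edgeR adjusted p of 0.0427. For Errfi1 they were Cdkn1c, Tmem200b and Slc25a23, with largest differences of 0.175, 0.186 and 0.196. Cdkn1c, a cyclin-dependent kinase inhibitor, stood at 9.09 and 13.7 CPM in Foxp3-DTR and 3.66 and 5.29 CPM in WT libraries. With 4 libraries, many genes can come this close, and the likeness is a description only.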

How the data were processed

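RNA from sorted cells was made into libraries with a stranded mRNA kit, per the labels' protocols. The authors deposited 1 table of raw counts, whole reads per gene symbol, with 1 column per library. HTSeq 0.6.1 and TopHat2 2.0.12 are named in the submitters' processing notes, beside SAMtools 0.1.19.0, Bowtie2 2.1.0.0 and CASAVA 1.8.2, with build mm10. Which annotation and strand setting were used is not given in the sources used here. The 5 summary rows without a gene name held 62.0% to 70.1% of the counts in a library, most of them reads that did not align uniquely, and were left out.

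Foxp3-DTR was set against WT with edgeR 4.0.16 in R 4.3.3 (TMM, filterByExpr, robust glmQLFit and glmQLFTest), with no covariate, over 12920 genes. P-values were adjusted over all of them by the Benjamini-Hochberg method, with a threshold of 0.05. The code was tested on simulated counts. SEs come from the fold change and the F statistic, and the 95% intervals are unadjusted. CPM uses TMM-scaled library sizes. Intervals and floors cover counting or library spread only, and p-values reflect only how far these libraries differ among themselves, which may be technical. Alternatives were DESeq2 1.42.0, limma-voom (limma 3.58.1), RLE and upper-quartile factors, no filter, a non-robust fit, and leaving out each library. Positions and exon lengths are from GENCODE M21. At 50 bases, 0% to 2.26% of the stretches of a member's transcripts occur in another gene's transcripts.

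The members and lists were chosen with earlier results of these data known. The rule for names took every member, the passing genes of each pathway list or else the 1 with the smallest p, and the 3 nearest patterns of 2 members. Pathway genes named outside this rule include Adam17, Rhbdf1, Socs5, Dusp6 and Ccnd1.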

Additional observations from a re-analysis of the deposited data

How the results depend on the processing

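The count of 0 family genes past the threshold became 3 with DESeq2 and 1 with no filter, and was 0 in the other 8 alternatives. Tgfa, Errfi1, Erbb2, Erbb3, Hbegf and Btc kept the sign of their log2 fold change in all 10 alternatives. Leaving out each library in turn moved Egfr between -0.40 and 0.25, Ereg between -3.25 and 0.40 and Epgn between -0.01 and 1.54. Egfr reversed to 0.01 without Foxp3-DTR D and to 0.25 without WT C, Ereg reversed to 0.40 without Foxp3-DTR C, and Epgn to -0.01 without Foxp3-DTR D. Over the 6 pathway lists, the 2 higher genes became 6 with DESeq2, 5 with no filter and 1 to 4 when a library was left out. The 1 lower gene became 3 with DESeq2, 2 with limma-voom or no filter, 0 with the non-robust fit and 0 to 2 when a library was left out. The cause of these shifts was not tested. With the longest annotated transcript as length, 2 genes changed place in the order of levels in Foxp3-DTR and 2 in WT. The shares of the ligands were taken with exon length only. Depth limits Areg, Btc and Epgn, with at most 22 counts in any library. No paired analysis was possible because the replicate letters of the groups share only C.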
